A study of Mus musculus with 8 samples.

Results

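Resident Kupffer cell genes are described here in mouse liver: Adgre1, Csf1r, Clec4f, Cd5l, Vsig4, Timd4, Marco, Cd163, Spic and Folr2. The 10 genes were chosen by symbol, and all 10 were found among the 35204 gene symbols of the table and passed the filter on low values. RNA from liver tissue was poly-A selected and sequenced as 8 libraries, of which 3 were controls from wild-type C57BL/6J mice with no treatment. The 5 others, called TAZ-CCl4 libraries here, were made from wild-type C57BL/6J mice that received both EF1a-TAZS89A by HTVI and carbon tetrachloride (CCl4), given 30 times at 3 times a week over 10 weeks. HTVI usually means hydrodynamic tail vein injection, a way to bring plasmid DNA into liver cells, mostly hepatocytes. TAZ S89A is a form of the Hippo pathway coactivator TAZ that escapes a restraining phosphorylation, EF1a is a promoter active in most cell types, and CCl4 is a liver toxin. No library with TAZ S89A alone, CCl4 alone or an empty vector was analysed here, so the effects of the treatments cannot be told apart. Sex and age are not given in the labels, nor do they say that each library came from its own mouse, so each p-value below reflects library-to-library spread that may partly be technical.

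Kupffer cells are the resident macrophages of the liver. They sit in the sinusoids, where they clear bacteria, dying cells and aged red cells from the blood. In the mouse they arise mostly from embryonic precursors and depend on signalling through the CSF1 receptor. When they are lost, blood monocytes can enter the liver and take on part of their gene programme, with Timd4 among the genes gained late. The genes described here fall into receptors shared by most macrophages (Adgre1, Csf1r), a lectin largely restricted to Kupffer cells in the mouse (Clec4f), receptors and secreted factors of clearance (Cd5l, Vsig4, Timd4, Marco, Cd163), a transcription factor of red cell recycling (Spic) and a folate receptor (Folr2).

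Values are normalised counts as the authors deposited them, 1 per gene and library. Wwtr1, which encodes TAZ, ranged over 279.9 to 463 among controls and 4339 to 9021 among TAZ-CCl4 libraries. Estimated depth was 18.5 to 24.8 M reads and 12.4 to 33.9 M reads, respectively. Normalised totals were unequal, at 29.8 to 35.1 M for controls against 12.4 to 14.2 M for TAZ-CCl4 libraries. Major urinary protein (Mup) genes made up 10.6% to 24.1% of the control totals and at most 0.139% of the others, and mitochondrial genes 11.7% to 14.3% and 3.66% to 6.96%. Directions therefore depend on how libraries are scaled: over the 14171 tested genes the median log2 fold change was 0.03 as deposited and 1.26 with libraries set to equal totals. Hepatocyte markers, summed over 8 genes, were abundant in all 8 libraries (1928250 to 2400070 and 702267 to 1017920). Fold changes below are on the log2(value + 1) scale at the deposited scaling unless equal totals are named. Controls and TAZ-CCl4 libraries also belong to different library projects in the labels, which cannot be told apart from the treatment. In bulk liver RNA, fewer cells of a type and less RNA per cell cannot be told apart.

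The 10 genes did not move as 1 block. At the deposited scaling 2 rose (Adgre1 and Csf1r), 2 fell (Timd4 and Cd163) and 6 were not called (limma, with a threshold of 0.05 on p adjusted over all tested genes). Of all tested genes, 62.3% changed, 32.4% higher and 29.8% lower, so 4 called of 10 is no larger a share than that of all genes. The median log2 fold change of the 10 genes was -0.27. The groups did not overlap for 3 of the 10 genes (Adgre1, Csf1r and Timd4), against 60.1% of all tested genes. At equal totals 4 genes were higher (Adgre1, Csf1r, Marco and Spic) and 1 was lower (Timd4), against 76.3% higher and 6.37% lower of all tested genes, so the share called higher was below that of all genes there. Their median was then 0.97, against 1.26 over all genes.

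**Figure D1:**
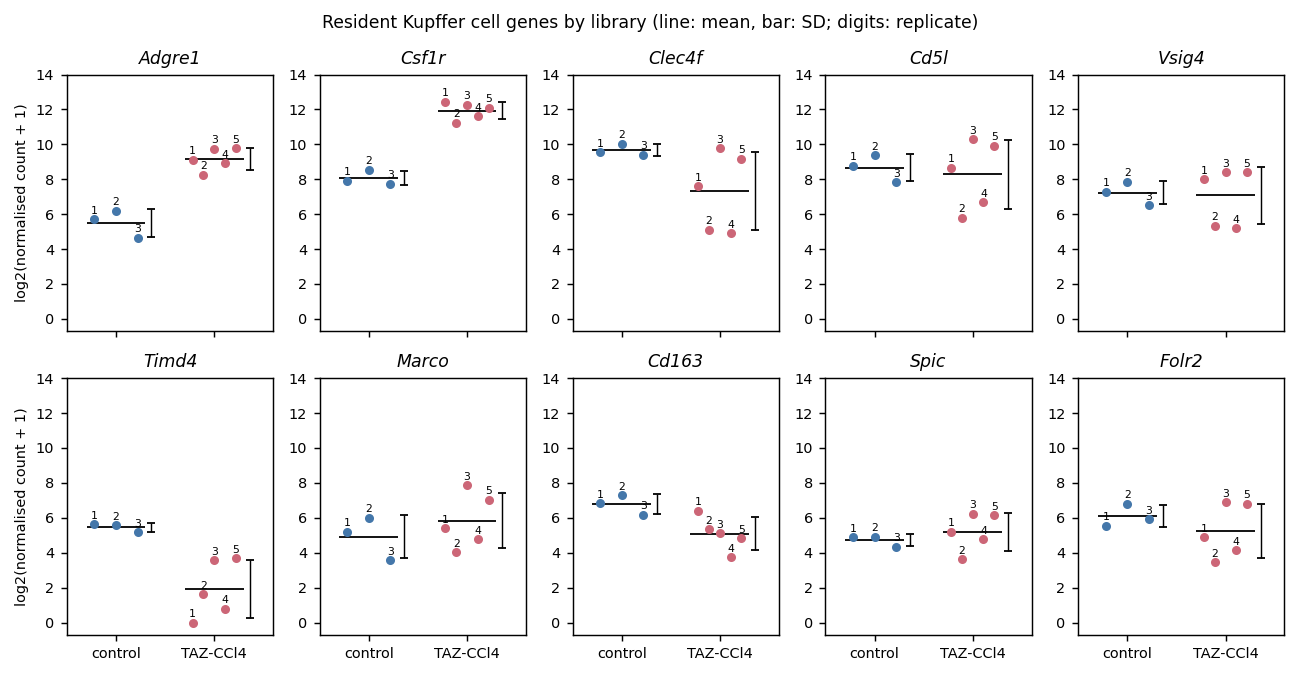
Log2(normalised count + 1) of each gene in the 3 control and 5 TAZ-CCl4 libraries, with replicate numbers at the points, a line at the group mean and a bar of 1 SD. Adgre1 and Csf1r lie higher in all 5 TAZ-CCl4 libraries, Timd4 lies lower in all 5, and most of the other genes have TAZ-CCl4 replicates 2 and 4 at the bottom of a wide spread.

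The receptors shared by most macrophages rose. Csf1r (mm10 chromosome 18, 61100598 to 61132149) encodes the receptor for CSF1 and IL-34, on which macrophage survival depends. Control replicates 1 to 3 read 241, 371 and 212, and TAZ-CCl4 replicates 1 to 5 read 5603, 2429, 4918, 3152 and 4352. Every TAZ-CCl4 library was above every control, and the difference was 3.87 ± 0.28 in log2 (SE; limma, adjusted p = 2.18e-06). Adgre1 (chromosome 17, 57358691 to 57483527) encodes F4/80, an adhesion receptor used as a macrophage marker in the mouse. Controls read 50.9, 72.3 and 23.9 and TAZ-CCl4 replicates 1 to 5 read 556, 308, 855, 483 and 881. The groups again did not overlap, and the rise was 3.66 ± 0.41 in log2 (SE; limma, adjusted p = 3.09e-05). Both rises were called at every scaling tried and without each library in turn.

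Clec4f (chromosome 6, 83644542 to 83656187), which encodes a galactose-binding C-type lectin of Kupffer cells, did not follow them. Controls read 751, 1049 and 678 and TAZ-CCl4 replicates 1 to 5 read 194, 33.8, 887, 29.0 and 576. TAZ-CCl4 replicate 3 lay within the control range and replicate 5 just under it, while replicates 1, 2 and 4 lay far below. The log2 fold change of -2.35 ± 1.04 (SE) missed the threshold (limma, adjusted p = 0.0725). It passed without TAZ-CCl4 replicate 3 (-2.96; limma, adjusted p = 0.0178) and without TAZ-CCl4 replicate 5 (-2.81; limma, adjusted p = 0.0384), and at equal totals it was -1.10 (limma, adjusted p = 0.316).

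Timd4 (chromosome 11, 46810800 to 46844332) encodes TIM-4, a phosphatidylserine receptor through which resident macrophages bind dying cells. Controls read 49.1, 47.1 and 34.8 and TAZ-CCl4 replicates 1 to 5 read 0, 2.07, 10.8, 0.730 and 12.01. Every TAZ-CCl4 library lay below every control. With the value of 1 read estimated from the steps between low values, these correspond to about 25.9 to 38.9 reads in the controls and to about 0, 2, 11, 2 and 11 reads in TAZ-CCl4 replicates 1 to 5, so 3 of the TAZ-CCl4 values rest on fewer than 3 reads. Timd4 fell by 3.53 ± 0.85 on the log2 scale (SE; limma, adjusted p = 0.00461), and the call was kept at equal totals (-2.55; limma, adjusted p = 0.0234) and without each library in turn. Its size depended on the pseudocount and scaling, from -1.90 with a pseudocount of 10 to -4.51 under quantile normalisation.

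Cd163 (chromosome 6, 124304656 to 124330527) encodes the scavenger receptor for haemoglobin bound to haptoglobin. Controls read 114, 157 and 71.3 and TAZ-CCl4 replicates 1 to 5 read 83.8, 39.4, 33.8, 12.4 and 27.2. Only TAZ-CCl4 replicate 1 reached the control range. Cd163 fell by 1.69 ± 0.52 on the log2 scale (SE; limma, adjusted p = 0.0161). The call was lost at equal totals (-0.46; limma, adjusted p = 0.409), without control replicate 1 (-1.65; limma, adjusted p = 0.0509) and without control replicate 2 (-1.43; limma, adjusted p = 0.0746).

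Cd5l (chromosome 3, 87357881 to 87371073) and Vsig4 (chromosome X, 96247203 to 96293438) encode a secreted scavenger-receptor protein known as AIM and the complement receptor CRIg, which binds C3 fragments on circulating bacteria. For Cd5l, controls read 438, 658 and 229 and TAZ-CCl4 replicates 1 to 5 read 407, 54.8, 1261, 102 and 962. For Vsig4, controls read 156, 233 and 91.4 and TAZ-CCl4 replicates 1 to 5 read 254, 39.7, 340.4, 35.8 and 339. For both genes TAZ-CCl4 replicates 3 and 5 were above all controls and replicates 2 and 4 below all controls, while replicate 1 was within the control range for Cd5l and above it for Vsig4. Neither passed the test (log2 fold changes -0.39 ± 0.94 and -0.16 ± 0.80, SE; limma, adjusted p = 0.736 and 0.874), and both signs turned at equal totals (0.86 and 1.08).

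Promoter sequences are shown for 2 genes that were low in most TAZ-CCl4 libraries (Clec4f, Timd4) and for Cd5l and Vsig4, each of which had the other as its nearest profile over the 8 libraries. They come from RefSeq on build GRCm38.p6, which mm10 also names, cover 250 bases before to 50 after the annotated start, and were available for 8 of the 10 genes. The windows are chr6:83656067-83656366 on the minus strand for Clec4f, chr11:46810549-46810848 on the plus strand for Timd4, chr3:87357631-87357930 on the plus strand for Cd5l and chrX:96293389-96293688 on the minus strand for Vsig4. Capitals mark 3 motifs on either strand: GAGGAA, a core bound by PU.1 and related ETS factors such as Spi-C, TGCTGA, a half-site of MAF factors, and TGGGAA, a core of the Notch effector RBPJ. No 2 marked matches overlap in these windows.
Clec4f: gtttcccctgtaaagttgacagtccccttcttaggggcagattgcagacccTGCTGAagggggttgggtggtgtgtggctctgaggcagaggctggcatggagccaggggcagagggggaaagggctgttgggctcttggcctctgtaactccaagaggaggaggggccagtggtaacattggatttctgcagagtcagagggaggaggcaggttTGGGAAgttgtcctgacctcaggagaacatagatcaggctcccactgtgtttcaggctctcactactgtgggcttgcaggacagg
Timd4: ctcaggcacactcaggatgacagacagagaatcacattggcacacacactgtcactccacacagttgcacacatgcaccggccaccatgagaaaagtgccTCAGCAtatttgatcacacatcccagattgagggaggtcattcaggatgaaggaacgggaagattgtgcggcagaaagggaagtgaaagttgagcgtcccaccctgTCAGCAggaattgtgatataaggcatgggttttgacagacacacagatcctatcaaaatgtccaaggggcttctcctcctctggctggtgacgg
Cd5l: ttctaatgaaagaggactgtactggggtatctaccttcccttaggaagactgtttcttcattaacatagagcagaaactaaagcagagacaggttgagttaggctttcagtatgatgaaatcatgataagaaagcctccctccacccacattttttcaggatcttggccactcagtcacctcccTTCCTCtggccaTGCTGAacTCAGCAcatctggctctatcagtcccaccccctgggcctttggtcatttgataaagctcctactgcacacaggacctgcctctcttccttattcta
Vsig4: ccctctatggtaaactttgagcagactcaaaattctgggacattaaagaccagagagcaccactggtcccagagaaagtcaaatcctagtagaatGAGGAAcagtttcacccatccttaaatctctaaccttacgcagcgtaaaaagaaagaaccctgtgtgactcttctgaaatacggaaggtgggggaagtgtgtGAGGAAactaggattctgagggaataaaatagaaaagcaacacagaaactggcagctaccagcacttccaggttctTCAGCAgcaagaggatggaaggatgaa

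TGCTGA was present in at least 1 window of 6 of the 8 genes, against 19.5% of 32851 RefSeq windows of this length. GAGGAA was present for 3 of 8 (Marco, Cd5l and Vsig4), against 28.3% of windows, and TGGGAA for 2 of 8 (Marco and Clec4f), against 25.6%. Timd4 held 2 matches to the MAF half-site, 150 and 44 bases before the start, and Vsig4 held 2 matches to the ETS core, 155 and 53 bases before it. Cd163 held none of the 3 motifs. A match describes these letters only.

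Marco (chromosome 1, 120474538 to 120505024) encodes a class A scavenger receptor for bacteria and particles. Controls read 35.9, 62.8 and 10.8 and TAZ-CCl4 replicates 1 to 5 read 41.7, 15.5, 234, 26.6 and 131. TAZ-CCl4 replicates 3 and 5 exceeded the controls and the other 3 lay within their range. The log2 fold change of 0.91 ± 0.86 (SE) did not pass (limma, adjusted p = 0.374) but passed at equal totals (2.12; limma, adjusted p = 0.0315).

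Spic (chromosome 10, 88674772 to 88685015) encodes an ETS-family transcription factor that iron-recycling macrophages need, known from the red pulp of the mouse spleen. Controls read 28.8, 29.4 and 19.2 and TAZ-CCl4 replicates 1 to 5 read 35.7, 11.3, 74.9, 26.6 and 69.4. The groups overlapped, with TAZ-CCl4 replicate 2 lowest and replicates 3 and 5 highest. The log2 fold change was 0.48 ± 0.56 (SE; limma, adjusted p = 0.479), and it passed at equal totals (1.68; limma, adjusted p = 0.0145).

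Folr2 (chromosome 7, 101839988 to 101857194), which encodes folate receptor beta of tissue macrophages, had control values of 45.8, 111 and 60.01 and TAZ-CCl4 values of 28.6, 10.0, 117, 16.5 and 111. Replicate 3 lay above the highest control, replicate 5 just under it, and the other 3 below the lowest control. It did not pass (log2 fold change -0.86 ± 0.77, SE; limma, adjusted p = 0.350), and the sign turned at equal totals (0.35).

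**Figure D2:**
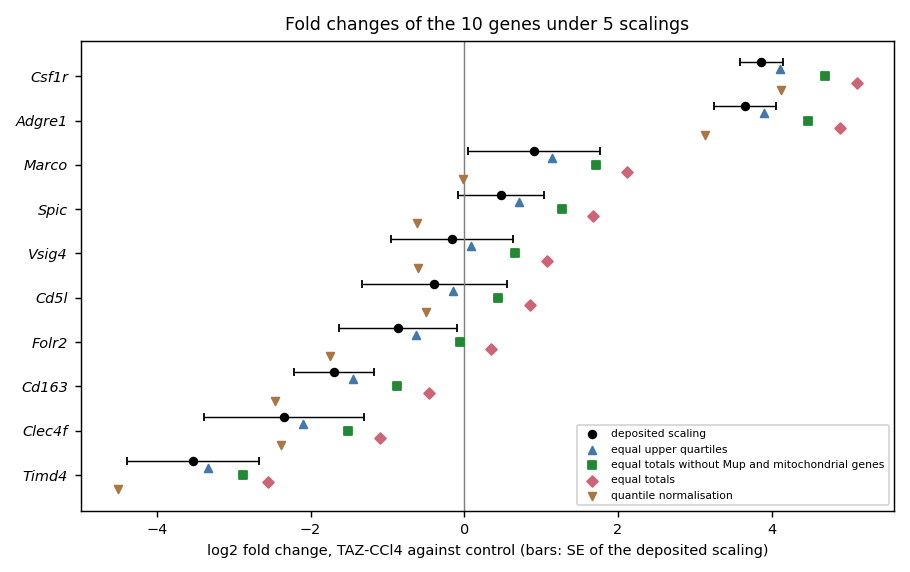
Log2 fold change of each gene, TAZ-CCl4 against control, at the deposited scaling (black circles, bars of 1 SE) and under 4 other scalings. Csf1r and Adgre1 stay right of 0 and Timd4, Clec4f and Cd163 left of 0 under all 5, while Marco, Spic, Vsig4, Cd5l and Folr2 change sides.

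The spread among the TAZ-CCl4 libraries followed the same libraries in most of the genes. Replicates 2 and 4 held the 2 lowest TAZ-CCl4 values for 8 of the 10 genes, all but Timd4 and Cd163. Over all tested genes the share was 15.8%. The pair was picked after the values were seen, so the larger share among the 10 genes is a description only. The count was 8 of 10 at each of the 3 other scalings that were counted, at which the share of all genes was 9.31% to 12.4%. Replicate 3 held the highest value for 6 of the 10. The median SD of log2 values over the 5 libraries was 1.57 for the 10 genes, 0.353 for 13 general macrophage genes and 0.318 for all tested genes. These sets were not matched for level. TAZ-CCl4 means ran from 5.12 (Timd4) to 4091 (Csf1r) for the 10 genes and from 356 (Fcgr1) to 7068 (Lyz2) for the 13. Clec4f, with an SD of 2.25, varied more than 99.6% of tested genes, and the highest Clec4f value was 30.6 times the lowest. Cd5l, Vsig4, Timd4, Marco, Folr2, Spic and Cd163 each varied more than 93.9% to 99.4% of tested genes. Csf1r and Adgre1 varied less, with SDs of 0.49 and 0.63. Replicates 2 and 4 had estimated depths of 13.1 and 33.9 M reads and the highest mitochondrial shares of the 5, 4.90% and 6.96%. Mup genes made up 0.139% and 0.0950% of the totals in replicates 3 and 5, against 0.00647% to 0.00767% in replicates 1, 2 and 4. Summed hepatocyte markers were also highest in replicates 3 and 5 (1017920 and 929390, against 702267 to 751240). The part of these library differences in this order was not tested. In the controls, replicate 2 was highest and replicate 3 lowest for 9 of the 10 genes each, with a median SD of 0.607 against 0.186 for all tested genes.

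**Figure D3:**
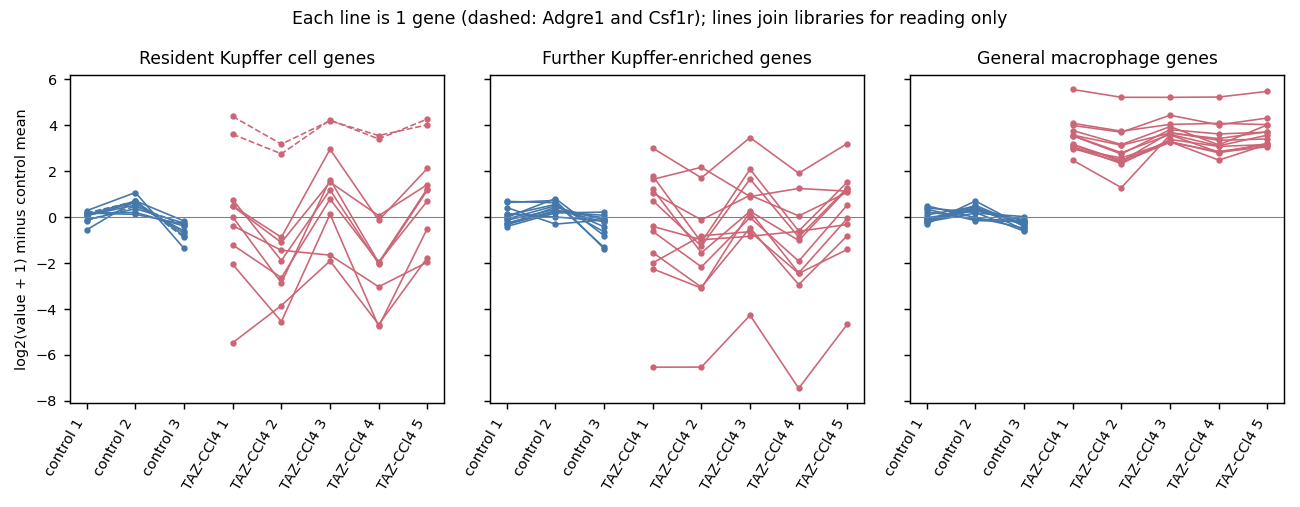
Log2(value + 1) of each gene minus its control mean, by library, for the 10 resident Kupffer cell genes, 12 further Kupffer-enriched genes and 13 general macrophage genes. The general macrophage genes lie 2.65 to 5.34 above the controls on average, whereas most Kupffer genes lie near or below 0 in TAZ-CCl4 replicates 2 and 4 and higher in replicates 3 and 5.

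The same order was seen in 12 further genes enriched in Kupffer cells. Replicates 2 and 4 held the 2 lowest values for 8 of these 12. This order was not particular to Kupffer genes. The count was 6 of 9 for CSF1R ligands and sinusoidal niche signals and 6 of 13 for general macrophage genes. It was 4 of 7 each for sinusoidal endothelial markers and for haem and iron recycling genes. Other lists had smaller shares, among them monocyte genes (2 of 10) and lipid-associated macrophage genes (0 of 10). At the deposited scaling 2 of the 12 further Kupffer genes were higher, 4 lower (C6, Paqr9, Hpgd and Fcna) and 6 not called. Control means were 8312 for C6, 4921 for Paqr9 and 2056 for Hpgd, against 826 for Clec4f. These bulk values do not assign such genes to Kupffer cells. The median of the 12 genes was -0.30 in log2 and 0.89 at equal totals. There 5 were higher and 1 (C6) lower, against 76.3% and 6.37% of all tested genes. Fcna, which encodes a ficolin of the lectin complement pathway, had control values of 256, 432 and 294 and TAZ-CCl4 values of 109, 37.7, 231, 40.8 and 183, and fell (log2 fold change -1.76 ± 0.58, SE; limma, adjusted p = 0.0220), though not at equal totals (-0.52; limma, adjusted p = 0.400). Siglec1, which encodes the sialic acid receptor CD169, rose from 60.2 ± 23.9 (SD, n = 3) to 409 ± 198 (SD, n = 5; limma, adjusted p = 0.000392). C6 fell from 8312 ± 2259 to 192 ± 168 (SD, n = 3 and 5; limma, adjusted p = 2.71e-05). It encodes a complement protein that hepatocytes also make. The log2 fold change of C6 was -5.89, against a median of -1.96 for 8 hepatocyte markers, of which 7 fell (4 at equal totals). The part of hepatocytes in the C6 values was not tested.

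All 13 general macrophage genes rose, by 2.65 to 5.34 on the log2 scale, and the groups overlapped for none of them. Across all tested genes 32.4% rose, and the groups did not overlap for 60.1%. Cd14, the co-receptor for bacterial lipopolysaccharide, rose from 17.8 ± 6.33 to 738 ± 86.3 and the lysozyme gene Lyz2 from 413 ± 96.7 to 7068 ± 1405 (SD, n = 3 and 5). The sum of the 13 genes was 2275 to 3598 in the controls and 22461 to 37005 in the TAZ-CCl4 libraries. It was lowest in TAZ-CCl4 replicate 2 and next lowest in replicate 4, as were most Kupffer genes, but only over that narrower range. All 10 monocyte genes rose, with a median of 3.99. Chil3, a chitinase-like gene of inflammatory monocytes, rose from 2.01 ± 2.52 to 253 ± 256 and the coagulation factor gene F13a1 from 3.64 ± 3.15 to 224 ± 136 (SD, n = 3 and 5). Chil3 averaged 0.601 over controls without replicate 2, and 141 over TAZ-CCl4 libraries without replicate 1. Of 10 lipid-associated macrophage genes, 9 rose, among them Trem2, a lipid receptor gene, from 12.5 ± 7.77 to 580.1 ± 113 (SD, n = 3 and 5). Spp1 is also among the 9 and is counted again with the biliary markers. These bulk values do not assign the genes of the monocyte and lipid-associated lists to a cell type.

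Levels were also compared within each library, where the scaling between libraries enters only through the 1 added to both values and so matters for low genes. For every gene other than Csf1r, the ratio of its value to that of Csf1r was taken. For 8 of 9 genes, all but Adgre1, the ratio was lower in every TAZ-CCl4 library than in every control, as it was for 87.7% of all tested genes. Clec4f was 3.10, 2.83 and 3.18 times Csf1r in the controls and 0.0349, 0.0143, 0.181, 0.00951 and 0.133 times Csf1r in the TAZ-CCl4 libraries. The log2 differences of the 8 genes ran from -7.40 for Timd4 and -6.21 for Clec4f to -3.39 for Spic and -2.96 for Marco. This order was not fixed, since Timd4, with its 0 to 11 estimated reads, came to -5.72 with a pseudocount of 10, where Clec4f came to -6.02, and Marco and Spic changed places without control replicate 3 (-3.47 and -3.42). Each of the 8 had p = 0.0357, the smallest p that an exact permutation test with 56 splits allows (two-sided, not adjusted over the 9 ratios computed). The ratio of Adgre1 overlapped between the groups, at 0.117 to 0.214 times Csf1r in the controls and 0.0994 to 0.203 times in the TAZ-CCl4 libraries (exact permutation test, p = 0.536). With the sum of the 13 general macrophage genes in place of Csf1r, 7 of the 10 genes had lower ratios in every TAZ-CCl4 library, no larger a share than the 85.8% of all tested genes.

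**Figure D4:**
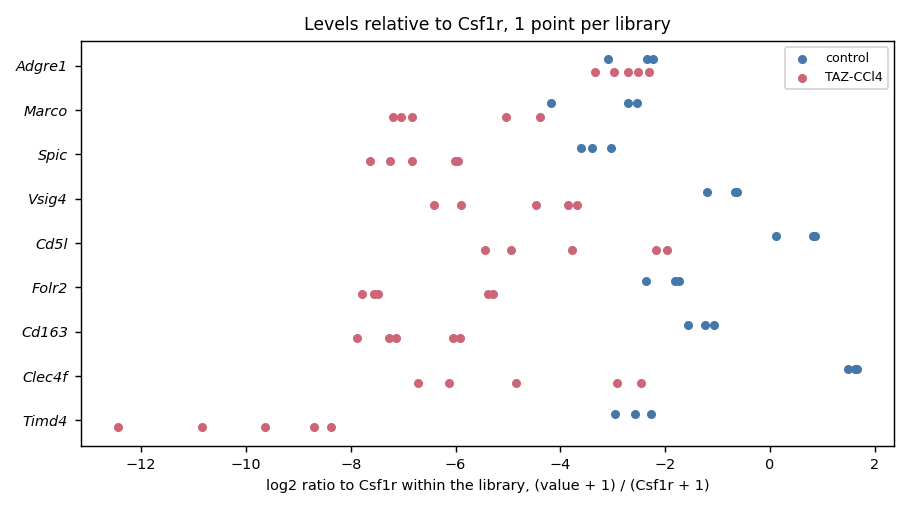
Log2 ratio of each gene to Csf1r within each library, with 1 added to both values, for 3 controls (blue) and 5 TAZ-CCl4 libraries (red). The groups overlap for Adgre1 and are apart for the other 8 genes, with Timd4 furthest to the left.

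The Kupffer genes also shifted against each other. In a comparison chosen after the values were seen, 7 of 9 genes had a higher ratio to Clec4f in every TAZ-CCl4 library than in every control. This held for 34.6% of all tested genes. A lower ratio in every library was found for 0 of 9, against 0.741%. The 7 include Csf1r and Adgre1, which most macrophages share, and Clec4f itself was low in most TAZ-CCl4 libraries. Cd5l was 0.339 to 0.628 times Clec4f in the controls and 1.42 to 3.44 times in the TAZ-CCl4 libraries. Vsig4 was 0.136 to 0.223 times Clec4f in the controls and 0.384 to 1.31 times in the TAZ-CCl4 libraries. The 2 genes whose ratio to Clec4f overlapped between groups were Timd4 (0.0458 to 0.0666 against 0.00512 to 0.0882) and Cd163 (0.106 to 0.153 against 0.0392 to 1.16).

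Per kilobase of the longest coding transcript, Clec4f had the highest level of the 10 genes in the controls, at 334 ± 79.5 normalised counts per kilobase (SD, n = 3). Cd5l followed at 217 ± 105, Vsig4 at 112 ± 49.4, Folr2 at 60.1 ± 28.6 and Csf1r at 58.5 ± 17.9. Cd163 at 25.7 ± 9.64, Timd4 at 20.1 ± 3.56, Marco at 19.0 ± 13.5, Adgre1 at 15.1 ± 7.48 and Spic at 14.6 ± 3.25 were lowest. Neighbours in this order had overlapping ranges except Csf1r (lowest 45.2) and Cd163 (highest 35.3). In the TAZ-CCl4 libraries Csf1r was highest, at 870.2 ± 275 per kilobase (SD, n = 5), and its lowest library, at 517, was above every other gene except the top of Cd5l. Cd5l at 274 ± 262, Adgre1 at 190.4 ± 76.2, Vsig4 at 141 ± 107 and Clec4f at 139 ± 152 had ranges that overlapped each other. TAZ-CCl4 replicate 3 weighed on some of these means, and without it Clec4f averaged 84.3 and Marco 27.9 per kilobase. Timd4 averaged 1.56 without TAZ-CCl4 replicate 5, and Marco 12.1 over the controls without replicate 2. Folr2 at 47.0 ± 43.8, Marco at 46.6 ± 48.1 and Spic at 24.7 ± 15.6 overlapped too, and Cd163 at 8.85 ± 6.04 and Timd4 at 2.36 ± 2.67 closed the order.

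Transcription factors that macrophages and Kupffer cells use were all called as deposited, with 9 of 13 higher and 4 lower, and 9 were higher and 1 lower at equal totals. Among all tested genes 32.4% were higher and 29.8% lower as deposited, and 76.3% and 6.37% at equal totals. Spi1, which encodes the macrophage factor PU.1, rose from 56.2 ± 8.32 to 388 ± 148 (SD, n = 3 and 5) and the interferon regulatory factor gene Irf8 by 2.37 on the log2 scale. Nr1h3, which encodes the oxysterol receptor LXR-alpha of the Kupffer programme, fell by 1.28 on the log2 scale but was not called at equal totals (-0.03; limma, adjusted p = 0.885). Hepatocytes also express Nr1h3, and these bulk values do not assign it to a cell type. Id3, a factor that Kupffer cells need for their development in the mouse, fell by 0.88 on the log2 scale but had a log2 fold change of 0.37 at equal totals.

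Of 9 CSF1R ligands and sinusoidal niche signals, 5 were higher, 2 lower and 2 did not pass (6 higher and 1 lower at equal totals). Over all tested genes 32.4% were higher and 29.8% lower (76.3% and 6.37% at equal totals). Csf1, the main ligand of Csf1r, had control values of 122, 130.1 and 137 and TAZ-CCl4 values of 2498, 939, 1597, 1225 and 1684, a rise of 3.53 ± 0.26 in log2 (SE; limma, adjusted p = 2.65e-06). Replicate 1 was highest and replicate 2 lowest, the same as for Csf1r. Il34, the other ligand, rose from 27.4 ± 6.61 to 47.3 ± 9.19 (SD, n = 3 and 5; limma, adjusted p = 0.0424), with groups that overlapped, but under quantile normalisation its sign turned and it was not called (-0.29; limma, adjusted p = 0.389). Tgfb1 and the Notch ligand gene Dll4 rose by 2.88 and 1.68, and the bone morphogenetic protein gene Bmp6 rose by 2.90. Bmp10 fell from 38.8 ± 20.8 to 4.83 ± 5.26, or 2.64 without TAZ-CCl4 replicate 1, and Bmp2 from 161 to 43.0 on average, although Bmp2 was not called at equal totals (-0.68; limma, adjusted p = 0.0939).

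Other genes of apoptotic cell uptake and of iron recycling, tasks that these receptors serve, were counted too. Of 9 genes of apoptotic cell uptake other than Timd4, 7 rose and 2 (Mertk and Tyro3) did not pass, and at equal totals all 9 were higher. The bridging protein gene Mfge8 rose from 199.8 ± 36.5 to 3505 ± 913 and the receptor kinase gene Axl by 3.40 on the log2 scale. Of 7 genes of haem and iron recycling, 3 rose, 1 fell and 3 did not pass, and at equal totals 6 were higher and 1 lower. The shares over all tested genes were 32.4% higher and 29.8% lower as deposited, and 76.3% and 6.37% at equal totals. The metal transporter gene Slc11a1 rose from 66.2 ± 17.0 to 443 ± 165, while Blvrb, which encodes a biliverdin reductase, fell from 3352 ± 172 to 950.2 ± 312 (SD, n = 3 and 5). Control means were 72086 for Hp, of the iron list, and 3352 for Blvrb, against 275 for Csf1r. The bulk values do not assign the genes of these lists to macrophages.

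Markers of other cell types moved between the groups as well. The counts below stand beside 32.4% of all tested genes higher and 29.8% lower as deposited, and 76.3% and 6.37% at equal totals. Of 7 sinusoidal endothelial markers 3 fell (Stab2, Clec4g and Oit3), 1 rose and 3 did not pass, whereas at equal totals 3 of the 7 were higher and 0 lower. Their summed levels were 1631 to 3350 for controls and 1445 to 2661 for TAZ-CCl4 libraries. Clec4g, a lectin gene of these endothelial cells, had control values of 292, 679 and 451 and TAZ-CCl4 values of 126, 29.9, 129, 20.8 and 169, with replicates 2 and 4 lowest as for Clec4f. All 6 tested neutrophil markers rose, the summed levels of the 7 listed were 61.8 to 71.8 and 399 to 729, and Ly6g, not tested, was at 0 in all controls and at 0 to 4.66 in the TAZ-CCl4 libraries. T and NK cell markers rose in 4 of 7 tested genes (6 at equal totals) and dendritic cell markers in 1 of 5 (4 at equal totals). Of 5 B cell markers, 1 fell and none rose as deposited, whereas at equal totals 2 were higher and 0 lower. Of 5 peritoneal macrophage markers 3 were tested, of which 2 rose (3 at equal totals), with summed levels of 1005 to 1682 and 1108 to 2572. The 2 were Gata6, from 154 ± 25.7 to 563 ± 109, and Icam2, from 25.4 ± 8.09 to 75.3 ± 25.3 (SD, n = 3 and 5), both of which other liver cells also express, and Icam2 was not called under quantile normalisation (0.49; limma, adjusted p = 0.245). Prg4 did not pass, and the untested Alox15 and Serpinb2 were at or near 0 in all 5 TAZ-CCl4 libraries, with values of at most 0.584 and 2.82. Of 8 stellate cell and myofibroblast markers 4 rose (6 at equal totals), all 6 biliary markers rose, and all 5 tested erythroid markers fell (1 at equal totals). The part of these cell types in the values of the Kupffer genes was not tested.

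Likeness was measured as the root mean square distance between log2 profiles centred on each gene's mean over the 8 libraries, among genes with a mean of at least 50. The nearest gene to Cd5l was Vsig4 (distance 0.445) and then Folr2 (0.582), and the nearest to Folr2 was Clec1b (0.441), a lectin-like receptor gene of the further Kupffer list. Clec4f was nearest to Clec4g (0.810) and Fcna (0.812). Marco was nearest to Adgre4 (0.383), another gene of the Adgre1 family, and Csf1r to Cd93 (0.130). Adgre1 was nearest to Anln (0.169), Cd163 to Kyat3 (0.369) and Spic to Gbp3 (0.327), none of them on the gene lists used here. Timd4 was nearest to Mettl7b (0.502), Gys2 (0.5499) and Keg1 (0.563), of which Gys2 encodes the liver glycogen synthase of hepatocytes. All profiles share the difference between the groups, so these distances are a description.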

How the data were processed

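Gene-level values of 8 mouse liver libraries were used, 3 control and 5 TAZ-CCl4, grouped by their labels. The table that the authors deposited holds normalised counts, a signal for each gene in each library that is neither whole nor of equal totals. DESeq2 and the mm10 build are named per the submitters' processing notes, without versions. When low values (under 10) were divided by the best-fitting step for 1 read, 54.8% to 66.7% came within 0.03 of a whole number. Reads could thus not be restored, the read numbers and depths given here are rough estimates, and no count model was used.

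Values were transformed as log2(value + 1), a scale that understates the change of low genes. The 14171 genes that averaged 10 or more entered limma 3.58.1 under R 4.3.3, with a prior variance trend and no covariate. Benjamini-Hochberg adjustment covered all of them, at a threshold of 0.05. Scaling, pseudocount, filter, prior variance, replicate block and each library were varied. Positions and lengths came from GENCODE M21, and promoters from RefSeq. Strand was not stated for the counting, so overlapping and antisense genes were not resolved. Libraries of each group were compared in pairs, and no pair matched within counting noise. The variance within a pair was 4.81 to 6.49 times counting noise for controls. It was 7.14 times for TAZ-CCl4 replicates 3 and 5, which were thus more alike than the other TAZ-CCl4 pairs (15.3 to 35.1 times).

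The 10 genes and the gene lists were chosen with earlier results of these data known. Each list gave the text up to 2 called genes, those that changed most in log2 among genes averaging 50 or more in 1 of the groups. Other list members were named after their values were seen. Values of 1 listed gene are not reported here.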

Additional observations from a re-analysis of the deposited data

Results flagged for a closer look

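A library apart was sought in 49 sets of 5 TAZ-CCl4 values, 40 of untransformed normalised counts and 9 of log2 ratios to Csf1r. In each set, the gap between the most extreme library and its nearest neighbour was divided by the range. The quotient was set against Dixon's 95% critical value, which normally distributed values pass by chance in about 1 of 20 groups. It was passed in 2 sets, with a quotient of 0.758 for Chil3 and 0.780 for Spp1. Chil3 stood at 699 in TAZ-CCl4 replicate 1, with the next value at 213. Spp1, which encodes osteopontin, stood at 115100 in TAZ-CCl4 replicate 4, with the next value at 49074. None of the 10 resident Kupffer cell genes, and none of their ratios to Csf1r, had such a library.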

How the results depend on the processing

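Adgre1 and Csf1r were called higher under every alternative, and Timd4 lower under every alternative that tested it. Among the 10 genes, 4 were called higher at equal totals. The number called lower was 1 at equal totals, whether or not Mup and mitochondrial genes were counted, and with a mean of at least 50, where Timd4 was not tested, and ranged from 1 to 3 when each library was left out in turn. Over all tested genes, 10808 were higher and 903 lower at equal totals, and 8912 and 1512 without Mup and mitochondrial genes. Of the genes of the other lists, 9 and 15 were lower at these scalings, against 27 as deposited. Cd163 also lost its call without Mup and mitochondrial genes (-0.88; limma, adjusted p = 0.143).

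Signs that turned had no call before or after. Cd5l came to 0.86 and 0.44, and Vsig4 to 1.08 and 0.67, at equal totals with and without Mup and mitochondrial genes. Folr2 came to 0.35 at equal totals, and Vsig4 to 0.082 at equal upper quartiles. Marco came to -0.018 and Spic to -0.61 under quantile normalisation. The log2 ratio of Adgre1 to the general macrophage sum differed by 0.25. Leaving out each library in turn gave -0.89 to 0.23 for Cd5l and -0.51 to 0.31 for Vsig4. The cause of these turns was not tested.

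Replicate numbers did not pair the samples (correlations of deviations -0.067, -0.064 and -0.088). With the replicate block, 1 gene was called lower, since Cd163 lost its call (limma, adjusted p = 0.0573), and Vsig4 came to 0.020. No other call among the 10 genes changed under the block. Without 1 library the exact test of the ratios could not reach the threshold (smallest p 0.0952 without a control and 0.0571 without a TAZ-CCl4 library), which says nothing about stability. Depth limits Timd4, with at most 11 estimated reads in a TAZ-CCl4 library.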
